A study of Mus musculus with 6 samples.

Results

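The fibroblast growth factor (FGF) family and its Sprouty brakes were followed in mouse germinal vesicle oocytes, fully grown oocytes that are still arrested before meiotic resumption. The members were the protein-coding genes named as FGF ligands, FGF receptors, Sprouty or Spred proteins. These were 34 of the 24421 genes of the count table: 18 secreted ligands, 4 intracellular FGFs, 5 receptors and 7 inhibitors. The rule goes by gene name. DKO oocytes came from Ring1 -/-; Rnf2 f/f; Zp3-cre females, and SKO oocytes from Ring1 -/-; Rnf2 f/f females without the transgene, with 3 mice of each genotype. Females were about 3 months old, of a mixed FVB, 129/Sv and C57BL/6J background, and each library held a pool of 15 oocytes of a single mouse. Ring1 and Rnf2 encode the E3 ligases of Polycomb repressive complex 1, and the series asks what they do for gene expression while the oocyte grows. Ring1 was null in both genotypes, so the comparison is of Rnf2 deletion on a Ring1-null background. The Zp3 promoter drives Cre in growing oocytes, so the deletion was aimed at the oocyte and not at the surrounding follicle cells, and only DKO carried Cre, so that Cre and the deletion cannot be told apart.

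FGFs are signalling proteins that bind receptor tyrosine kinases on neighbouring cells together with heparan sulfate or Klotho co-receptors. The receptors pass the signal through adaptor proteins and Ras to the ERK kinases, and Sprouty and Spred proteins, often induced by the same signal, damp the Ras and ERK step. In the mouse ovary FGF8 is known as a factor that oocytes send to their cumulus cells, where it acts with BMP15 to promote glycolysis. The FGF11 subfamily is the exception in the family: its proteins stay inside the cell and are known as partners of voltage-gated sodium channels.

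RefSeq windows around the annotated starts (GRCm38.p6, 250 bases before to 50 after the start, 300 in all) were at hand for 25 of the 34 members, some with several starts. The 250 bases before the start are shown for 3 members that were higher in DKO oocytes, 1 that was lower and 1 that was not called, to set side by side a pair of ligands, Fgf18 and Fgf9, and a pair of Sproutys, Spry2 and Spry1, whose calls differed, with every CG dinucleotide in capitals. The position follows each name. The Fgf9 stretch lies inside the gene's span (58070671 to 58112854), so the start used there was not the outermost. The stretches of Fgf18, Spry2, Spry1 and Spred1 abut the outer end of their gene, so Fgf18 and Fgf9 are not a like pair.
Fgf18, higher in DKO (chr11:33147401-33147650, minus strand): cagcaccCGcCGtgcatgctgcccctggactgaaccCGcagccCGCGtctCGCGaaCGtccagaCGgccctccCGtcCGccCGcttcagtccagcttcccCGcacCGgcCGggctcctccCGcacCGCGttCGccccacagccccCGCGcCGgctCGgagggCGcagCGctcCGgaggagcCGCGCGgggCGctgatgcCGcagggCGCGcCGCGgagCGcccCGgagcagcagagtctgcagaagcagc
Fgf9, not called (chr14:58072436-58072685, plus strand): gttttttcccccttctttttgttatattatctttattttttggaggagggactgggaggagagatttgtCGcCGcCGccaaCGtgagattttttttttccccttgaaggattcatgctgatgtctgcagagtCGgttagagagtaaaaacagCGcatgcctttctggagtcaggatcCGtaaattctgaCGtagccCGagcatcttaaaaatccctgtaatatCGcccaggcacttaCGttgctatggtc
Spry2, higher in DKO (chr14:105896820-105897069, minus strand): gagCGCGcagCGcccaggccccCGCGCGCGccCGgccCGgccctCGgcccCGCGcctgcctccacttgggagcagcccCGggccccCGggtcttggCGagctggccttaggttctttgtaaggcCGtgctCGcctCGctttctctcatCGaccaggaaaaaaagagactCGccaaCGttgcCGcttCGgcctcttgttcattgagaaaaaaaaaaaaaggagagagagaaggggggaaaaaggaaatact
Spry1, lower in DKO (chr3:37639697-37639946, plus strand): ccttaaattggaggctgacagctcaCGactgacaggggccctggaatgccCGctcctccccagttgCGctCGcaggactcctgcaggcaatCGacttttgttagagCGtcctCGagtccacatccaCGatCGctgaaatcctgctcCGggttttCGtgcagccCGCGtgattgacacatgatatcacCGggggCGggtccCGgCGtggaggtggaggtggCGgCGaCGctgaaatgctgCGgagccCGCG
Spred1, higher in DKO (chr2:117120821-117121070, plus strand): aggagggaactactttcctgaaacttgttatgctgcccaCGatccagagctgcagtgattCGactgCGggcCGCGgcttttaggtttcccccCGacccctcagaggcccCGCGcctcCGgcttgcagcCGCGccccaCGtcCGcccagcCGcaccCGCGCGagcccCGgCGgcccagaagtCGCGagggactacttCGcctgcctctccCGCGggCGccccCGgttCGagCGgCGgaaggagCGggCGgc
These stretches held 37 CG in Fgf18, 11 in Fgf9, 23 in Spry2, 23 in Spry1 and 31 in Spred1. The risen Spry2 and the fallen Spry1 thus had equal numbers of CG.

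Over the whole 300-base windows, CpG-rich was taken to mean a GC content of at least 50% and an observed-over-expected CpG ratio of at least 0.6. All 5 risen members with a window (Fgf5, Fgf18, Fgf13, Spry2 and Spred1) had a CpG-rich one, as did the fallen Spry1. Among the members tested and not called, 2 of 8 did (Fgfrl1 and Spred2), and among those too low to test, 7 of 11. Of the 8, Fgf9, Fgf11 and Spred3 had a window inside the gene's span and not at its outer end, and none of these was CpG-rich. The uncalled and the risen members are therefore not compared like for like. These counts take a gene by any of its windows, which favours genes with several starts, and no such share over all genes was taken. Fgf16, Fgf1 and Fgf8 were called but had no window. By window, 6 of 8 were CpG-rich in the risen members and 20 of 32 in all members, against 33.5% of all 32851 windows of the table. The members' windows had a median of 19 CG each, against 7 over all windows. Fgf13 had 4 annotated starts with 3, 40, 6 and 37 CG, and gene counts do not say which was used. The TATA motif TATAAA, on either strand, was in 3 of the members' 32 windows (at Fgf5, Fgf21 and 1 start of Fgf13) and in 13.6% of all windows. CCGGAAG, a core that ETS factors bind, was in 1 (Fgfrl1), on either strand, and in 8.86% of all windows. These are matches of letters and were not tested against the expression changes.

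Total counts were 15521975 to 26652745 per DKO library and 22990699 to 26437540 per SKO library, and a floor of 3 counts was 0.117 to 0.171 CPM in DKO and 0.121 to 0.138 CPM in SKO libraries (CPM stands for counts relative to the TMM-adjusted library total). Rnf2, the targeted gene, had 56.3, 30.7 and 22.9 CPM in DKO and 203, 180 and 188 CPM in SKO (edgeR adjusted p = 0.000349, log2 fold change -2.38), and Ring1 had 19 counts over DKO and 10 over SKO. The 10 oocyte markers summed to 10620 to 14140 CPM in DKO and 18470 to 19470 CPM in SKO, and 5 of them fell, 0 rose. Their most abundant genes by CPM were Gdf9, Bmp15 and Nlrp5. The 15 granulosa markers summed to 312 to 353 CPM in DKO and 209 to 230 CPM in SKO, with 5 higher and 1 lower. The most abundant in DKO, Nr5a2, Esr2 and Cyp11a1, were at 117, 95.6 and 36.9 CPM in DKO and at 79.2, 80.6 and 14.6 CPM in SKO. Cyp19a1, the one that fell, was at 17.0 CPM in DKO and 30.0 CPM in SKO, and Fshr, with the largest change of the list, at 30.7 CPM in DKO and 0.506 CPM in SKO. Foxl2 was at 1.18 CPM in DKO and 0.176 CPM in SKO, and Amhr2 at 0.124 CPM in DKO and 0.115 CPM in SKO. The 14 stroma, theca and vessel markers, led by Pecam1, Tek and Kdr, summed to 114 to 128 CPM in DKO and 118 to 157 CPM in SKO. Of these 5 rose (Col1a1, Pdgfra, Dcn, Lum and Kdr) and 1 fell, Pecam1, which alone had 61.0 CPM in DKO and 109.6 CPM in SKO and so dominates the sum. The 10 blood markers, Cd68 the most abundant of those named here, summed to 3.69 to 10.4 CPM in DKO and 2.30 to 4.67 CPM in SKO. None of the granulosa markers was at 0 in all libraries of a genotype. Col1a2 was at 0 in DKO, Col3a1, Lum, Tcf21, Cdh5, Ptprc and Adgre1 were at 0 in SKO, and Cd52, Hba-a1 and Hbb-bs were at 0 in both. What part granulosa or stroma RNA has in the changes of FGF genes was not tested. In pooled oocytes, fewer cells with a transcript and less of it per cell cannot be told apart.

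Of the 34 members, 19 passed the filter on low counts and were tested, and the other 15 had too few reads. Of the 19, 6 rose in DKO oocytes (Fgf5, Fgf13, Fgf16, Fgf18, Spry2 and Spred1), 3 fell (Fgf1, Fgf8 and Spry1) and 10 were not called (edgeR quasi-likelihood test, adjusted p under 0.05 over all 14845 genes tested). Thus 31.6% of the tested members rose and 15.8% fell, against 17.3% and 7.41% of all genes tested. Of the 6 that rose, Fgf5, Fgf13, Fgf16 and Spry2 passed the filter only because of their DKO reads, as did the uncalled Fgf11. Such a filter favours a rise in advance, and nothing is read from the share of risen members. Of the 14 members that also pass on SKO reads alone, 2 rose and 3 fell, and those 3 pass on DKO reads alone as well. This subset was chosen on SKO reads and has no matching share over all genes, so nothing is read from its counts. The median log2 fold change of the tested members was 0.42, and that of all genes tested was 0.04. The groups did not overlap, with DKO higher, in 8 of the 19 and, with DKO lower, in 4, where over all genes tested 24.7% and 19.6% did so. Those 8 include Fgf5, Fgf11, Fgf13, Fgf16 and Spry2, which passed the filter only because of their DKO reads. Nothing is therefore read from this count or from the median of the members.

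**Figure D1:**
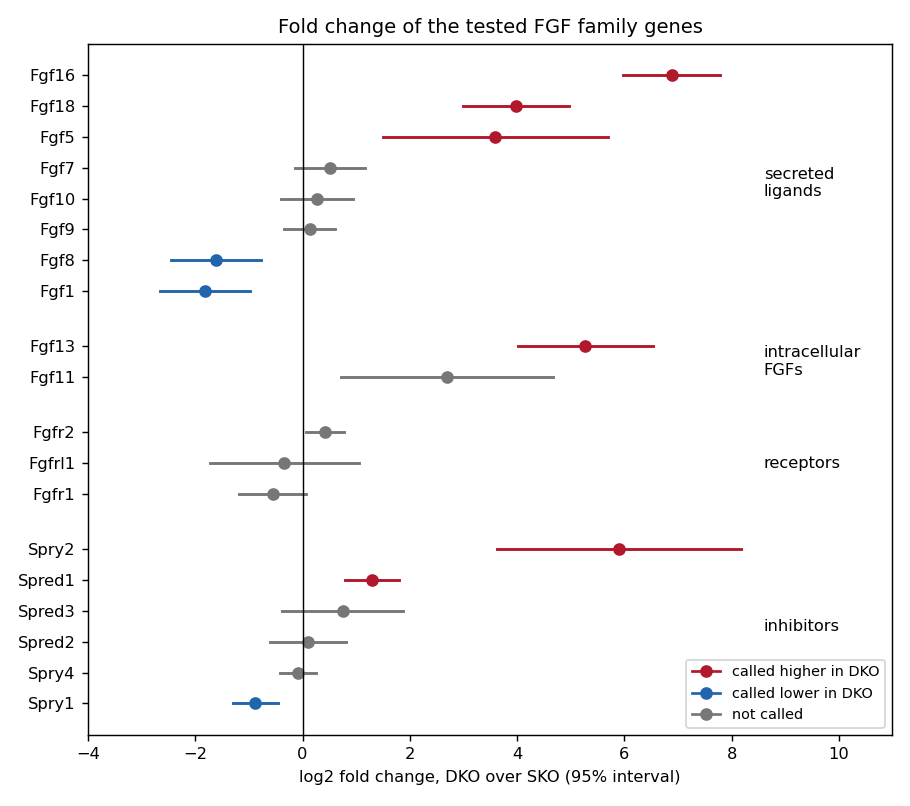
Log2 fold change of the 19 tested FGF family genes, DKO over SKO, by role (points, with 95% intervals from edgeR; 3 libraries per genotype). Fgf16 at 6.88, Spry2 at 5.91 and Fgf13 at 5.27 stand far to the right, and Fgf1, Fgf8 and Spry1 lie left of 0 with intervals that do not reach it.

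Secreted ligands changed in both directions. Fgf16 and Fgf18 were at most at 0.403 and 1.93 CPM in SKO oocytes and rose to the level of the abundant ligands in DKO oocytes, Fgf8 and Fgf1 fell, and Fgf7, Fgf9 and Fgf10 were not called. Of 18 ligand genes 8 were tested, 3 rose and 2 fell.

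Fgf8 (chromosome 19, 45736491 to 45742941, GRCm38, RefSeq annotation), the ligand that oocytes send to cumulus cells, fell. It measured 7.18, 16.3 and 5.67 CPM in DKO and 26.8, 35.7 and 26.5 CPM in SKO. The highest DKO library stayed below the lowest SKO library. Its log2 fold change was -1.61 (SE 0.38, adjusted p = 0.0115, edgeR), 3.06-fold lower. DKO replicate 2 held the highest of the DKO values, and without that library the log2 fold change was -2.21 (adjusted p = 0.00178, edgeR). Beside it, its known partner Bmp15 had a log2 fold change of -0.68 (SE 0.14, adjusted p = 0.00684, edgeR), and how far the fall of Fgf8 goes with the lower oocyte markers was not tested.

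Fgf18 (chromosome 11, 33116970 to 33147400), a ligand of the FGF8 subfamily known from bone, cartilage and lung, rose. It had 17.6, 14.6 and 35.5 CPM in DKO against 1.45, 0.875 and 1.93 CPM in SKO. All DKO libraries were above all SKO libraries, and DKO replicate 3 was the highest. The log2 fold change was 3.98 (SE 0.45, adjusted p = 0.000176, edgeR), 15.8-fold higher. Its start is the most CG-dense of those shown above. Fgf17, the third gene of the subfamily, had 7 counts over DKO and 2 over SKO, all in DKO replicate 2 and SKO replicate 1, and was not tested. The opposite directions of Fgf8 and Fgf18 were each called, but the difference between these genes was not tested as such.

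Fgf16 (chromosome X, 105764477 to 105776532), a ligand of the FGF9 subfamily known from the embryonic heart, rose most among the members. It had 31.4, 25.8 and 29.0 CPM in DKO and 0.403, 0.138 and 0.164 CPM in SKO. The 3 DKO libraries lay close together and far above every SKO library, where the gene had 17 counts in all. The log2 fold change was 6.88 (SE 0.41, adjusted p = 3.42e-06, edgeR), 118-fold higher, and 7.49 without SKO replicate 1, which held 10 of the 17 counts. Fgf9, its relative and known for its part in testis formation, had 21.4, 19.7 and 21.9 CPM in DKO and 21.5, 17.9 and 18.0 CPM in SKO. These values overlap, and the 95% interval of the log2 fold change ran only from -0.35 to 0.61 (adjusted p = 0.691, edgeR). Fgf20, the third gene of the subfamily, had 3 counts over DKO and 0 over SKO.

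Fgf1 (chromosome 18, 38838672 to 38929470), a ligand that binds every FGF receptor, fell. Its values were 8.66, 8.50 and 3.50 CPM in DKO and 16.8, 28.2 and 27.7 CPM in SKO. The groups did not overlap, and the log2 fold change was -1.82 (SE 0.38, adjusted p = 0.00609, edgeR), 3.53-fold lower. The gene spans or touches Gm5820, at 20.5 CPM in DKO and 33.2 CPM in SKO, and Arhgap26, at 172 CPM in DKO and 144 CPM in SKO, so part of its reads may belong to them. Gm5820 differed by -12.7 CPM and Arhgap26 by 27.3 CPM (DKO minus SKO), and their part in the Fgf1 values was not tested. Fgf2, the other gene of its subfamily, was listed at 0 in all libraries, overlaps Nudt6, and the authors' handling of reads from overlapping genes is not stated.

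Fgf5 (chromosome 5, 98254184 to 98277033), known as the signal that ends hair growth, rose to a level that was still low. It had 0.456, 0.517 and 0.738 CPM in DKO and 0.0805, 0.0461 and 0 CPM in SKO. That is 38 counts over DKO and 3 over SKO, a ratio of 13.9 (exact 95% Poisson interval 4.41 to 70.4), with an adjusted p of 0.0197 (edgeR). The call was lost without any single SKO library, at an adjusted p of 0.0502 without SKO replicate 1 (log2 fold change 4.37), 0.0872 without SKO replicate 2 and 0.0852 without SKO replicate 3 (edgeR), against a log2 fold change of 3.60 with all libraries.

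Fgf7 and Fgf10, epithelial growth signals that act through a splice form of Fgfr2, were present in both genotypes. Fgf7 had 45.3, 56.1 and 32.0 CPM in DKO and 23.5, 25.5 and 44.5 CPM in SKO, and Fgf10 had 29.8, 14.6 and 32.5 CPM in DKO and 21.5, 18.8 and 23.4 CPM in SKO. For both the groups overlap. The 95% intervals of the log2 fold change ran from -0.14 to 1.17 for Fgf7 and from -0.39 to 0.94 for Fgf10, so a moderate rise of either lies within the intervals. The other ligands were at trace level. Fgf3 and Fgf4 were listed at 0. Fgf6 had 8 counts over DKO and 13 over SKO, and Fgf22 had 6 over DKO and 0 over SKO, with 5 of the 6 in DKO replicate 3. The endocrine ligands, which act at a distance through Klotho co-receptors, had 5 counts over DKO and 6 over SKO for Fgf15, 7 and 2 for Fgf21, and 1 and 9 for Fgf23. A change in these was not detectable at this depth.

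**Figure D2:**
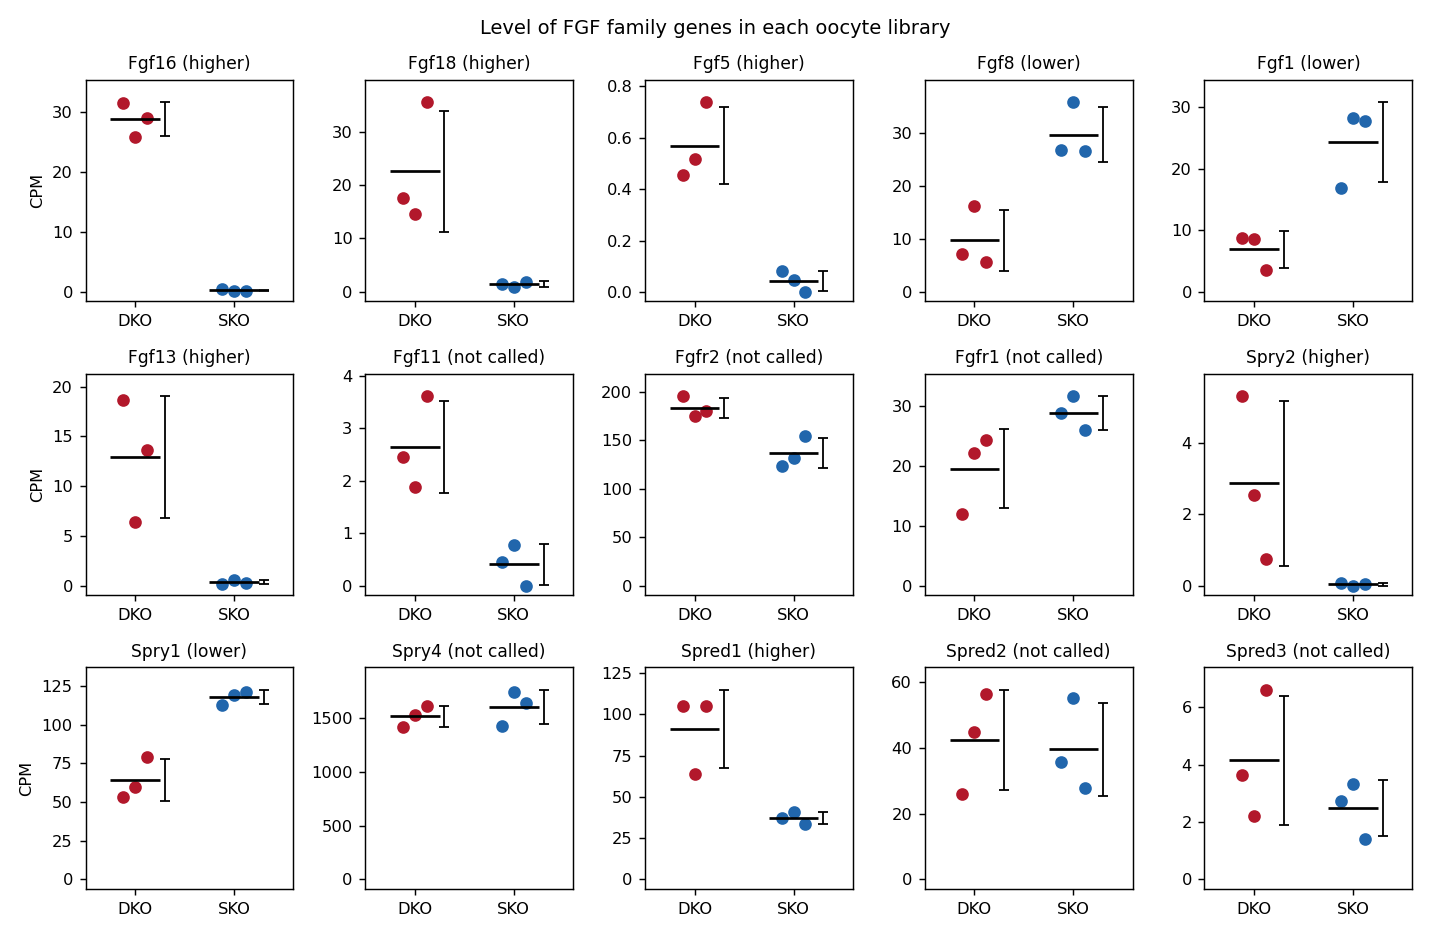
Level in CPM (y axis, linear from 0, each panel its own scale) of 15 FGF family genes in each library, with DKO on the left and SKO on the right; points are libraries, horizontal lines means and bars 1 SD (n = 3 each). Fgf16 lies at 25.8 to 31.4 in DKO and at 0.138 to 0.403 in SKO, Fgf8 and Spry1 are lower in every DKO library, and Spry4 overlaps between the genotypes.

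Because counts grow with transcript length, ligands were set beside each other as CPM per kilobase of the deposited gene length. The 18 ligands together summed to 55.6, 58.2 and 59.7 CPM per kilobase in DKO and 42.8, 50.8 and 51.2 in SKO. The sum was thus somewhat higher in every DKO library, while its makeup differed more. Fgf8 held 9.79%, 21.2% and 7.21% of the ligand sum in DKO and 47.5%, 53.3% and 39.2% in SKO, where it was the leading ligand of every library. Fgf18 held 19.9%, 15.8% and 37.3% in DKO and 2.13%, 1.08% and 2.37% in SKO. Fgf16 held 18.6%, 14.6% and 16.0% in DKO and at most 0.310% in SKO. Fgf7 held a similar part in both, 24.6% ± 6.9 in DKO and 20.4% ± 6.4 in SKO (SD, n = 3 each). Shares of a common sum depend on each other and were not tested.

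**Figure D3:**
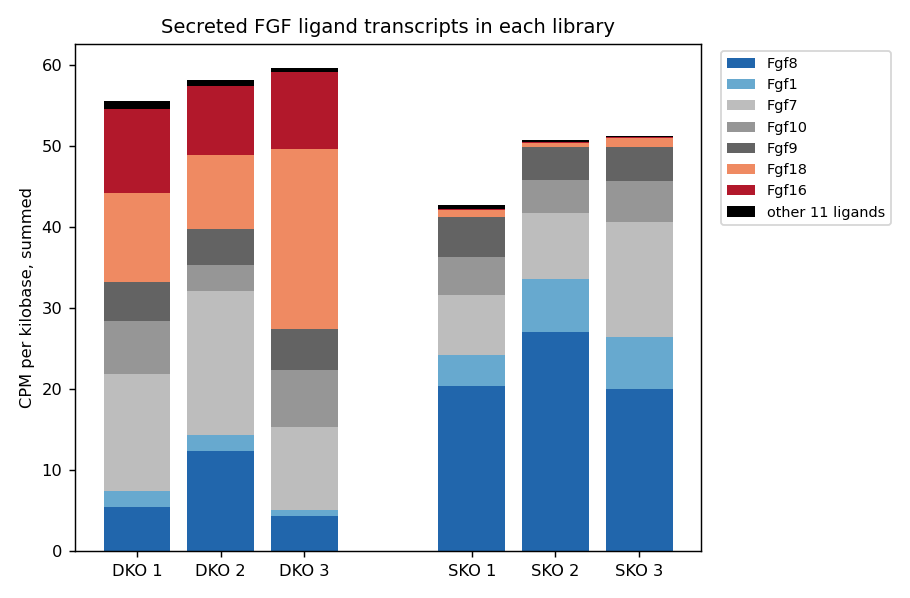
Secreted FGF ligand transcripts in each library, as CPM per kilobase stacked by gene (y axis) for 3 DKO and 3 SKO libraries. The blue parts, Fgf8 and Fgf1, are smaller in each DKO library, and the orange and red parts, Fgf18 and Fgf16, are visible in DKO and near 0 in SKO.

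Of the 4 intracellular FGFs, 2 were tested and 1 rose. Fgf13 (chromosome X, 59062139 to 59585572), a partner of sodium channels and microtubules in neurons, had 18.6, 6.44 and 13.7 CPM in DKO and 0.201, 0.553 and 0.247 CPM in SKO. Every DKO library was above every SKO library, and DKO replicate 2 was the lowest of its group. The log2 fold change was 5.27 (SE 0.57, adjusted p = 0.000129, edgeR), 38.6-fold higher. Fgf11 (chromosome 11, 69796068 to 69802944) had 2.45, 1.88 and 3.61 CPM in DKO and 0.443, 0.783 and 0 CPM in SKO. These groups do not overlap either, but its log2 fold change of 2.70 (SE 0.89) just missed the threshold at an adjusted p of 0.0504 (edgeR). It passed in 7 of 12 alternative analyses, and the adjusted p ranged from 0.00692 to 0.113 over them. Fgf11, like Fgf13, passed the filter on low counts only because of its DKO reads, which favours such a gap in advance. Fgf12 had 33 counts over DKO and 4 over SKO, a ratio of 9.05 (exact 95% Poisson interval 3.22 to 35.2), and Fgf14 had 2 and 1 counts. Neither was tested.

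No FGF receptor gene was called. Of 3 tested with edgeR, 1 (Fgfr2) had an unadjusted p under 0.05, and the DESeq2 Wald test called 0. Fgfr2, the most abundant receptor gene per length in both genotypes, had 195, 175 and 180 CPM in DKO and 124, 132 and 154 CPM in SKO. The genotypes did not overlap. The log2 fold change was 0.42 with a 95% interval from 0.07 to 0.78 and an adjusted p of 0.0791 (edgeR), and with library totals in place of TMM scaling it was 0.59 and passed at an adjusted p of 0.0230. Fgfr1 had 12.1, 22.3 and 24.4 CPM in DKO and 28.9, 31.7 and 26.1 CPM in SKO, lower in every DKO library, with a log2 fold change of -0.56 (95% interval -1.18 to 0.06, adjusted p = 0.170, edgeR). Per kilobase, Fgfr2 stood at 30.8 ± 1.81 in DKO and 22.9 ± 2.64 in SKO, and Fgfr1 at 3.02 ± 1.01 in DKO and 4.45 ± 0.435 in SKO (CPM per kilobase, SD, n = 3 each). Fgfrl1, a receptor-like protein without a kinase domain, was near 1 CPM with overlapping groups. Fgfr3 had 31 counts over DKO and 4 over SKO, a ratio of 8.51 (exact 95% Poisson interval 3.01 to 33.2), and was not tested, and Fgfr4 had 0 and 2 counts. Gene counts do not tell the splice forms of the receptors apart, which decide which ligands bind.

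Among the inhibitors, the most abundant did not pass the test while its relatives moved in opposite directions. Of 7 genes 6 were tested, 2 rose (Spry2 and Spred1) and 1 fell (Spry1). Spry4 (chromosome 18, 38586247 to 38601347), a Sprouty that restrains ERK signalling, was the most abundant of all 34 members, with 1414, 1525 and 1610 CPM in DKO and 1429, 1739 and 1637 CPM in SKO. The groups overlap, and the 95% interval of the log2 fold change, -0.42 to 0.26, leaves room for small changes (adjusted p = 0.741, edgeR). Per kilobase it stood at 330 ± 21.4 in DKO and 349 ± 34.4 in SKO, where Spry1, the next inhibitor in that order, stood at 25.7 ± 5.41 in DKO and 47.3 ± 1.79 in SKO (CPM per kilobase, SD, n = 3 each).

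Spry1 (chromosome 3, 37639947 to 37644599), a Sprouty known from kidney branching, fell. It had 53.3, 59.7 and 79.1 CPM in DKO and 113, 119 and 121 CPM in SKO. No DKO library reached the SKO range. The log2 fold change was -0.88 (SE 0.19, adjusted p = 0.00728, edgeR), 1.84-fold lower. Spry2 (chromosome 14, 105891947 to 105896819), a close relative of Spry1, rose, with 166 counts over DKO and 3 over SKO. It had 5.30, 2.54 and 0.738 CPM in DKO and 0.0805, 0 and 0.0411 CPM in SKO. All DKO libraries were higher, but they spread widely, with replicate 1 the highest and replicate 3 the lowest. The ratio was 60.7 (exact 95% Poisson interval 20.4 to 297), with an adjusted p of 0.00236 (edgeR). The log2 fold change was 5.91 with all libraries, 5.12 without DKO replicate 1 and 6.68 without SKO replicate 1. Both starts printed above are CG-rich. Spry3 had 0 counts over DKO and 7 over SKO, all in replicate 2.

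Spred1 (chromosome 2, 117121071 to 117182279), which brings neurofibromin to Ras, rose, with 105, 63.8 and 105 CPM in DKO and 37.2, 40.6 and 33.4 CPM in SKO. The groups were well apart, and the log2 fold change was 1.30 (SE 0.22, adjusted p = 0.00230, edgeR), 2.46-fold higher. Spred2 had 26.1, 44.8 and 56.3 CPM in DKO and 35.7, 55.2 and 27.8 CPM in SKO. These overlap fully, with a 95% interval from -0.61 to 0.81. Spred3 was low, at 4.15 ± 2.24 CPM in DKO and 2.48 ± 0.984 CPM in SKO (mean and SD, n = 3 each), with an adjusted p of 0.318 (edgeR). Per kilobase Spred1 stood at 12.9 ± 3.33 in DKO and 5.23 ± 0.509 in SKO, and Spred2 at 11.3 ± 4.05 in DKO and 10.5 ± 3.75 in SKO, and the spreads of these 2 genes overlap in DKO.

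The rest of the pathway was read from a list of 59 genes. Of 52 tested, 16 rose and 3 fell, 30.8% and 5.77%, against 17.3% and 7.41% of all genes tested, and the median log2 fold change was 0.19. Of the 52, Klb, Sdc3, Fos and Etv4 passed the filter only because of their DKO reads, and the first 3 of these are among the risen, so nothing is read from the share. Of the 48 that pass on SKO reads alone, 13 rose and 3 fell. The fallen Fgfbp1 passed only because of its SKO reads, so nothing is read from these counts either. By class, 4 of 5 tested co-receptors and FGF binders, 6 of 17 heparan sulfate genes and 1 of 18 relay genes rose. Of the feedback brakes 2 of 6 rose, and of the target genes 3 of 6. These counts include Klb, Sdc3 and Fos, and the classes are small. Nothing is read from them beside the 17.3% of all genes tested. Leaving out single libraries gave 12 to 17 rises and 1 to 4 falls.

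Of 6 tested targets, genes that FGF and ERK signals commonly switch on, 3 rose (Etv5, Egr1 and Fos) and 0 fell, and 4 of the 6 pass the filter on SKO reads alone. Of 6 tested brakes, genes whose products damp the pathway, 2 rose (Dusp4 and Dusp6) and 0 fell, while Nf1, Rasa1, Cbl and Il17rd were not called. Dusp6, a phosphatase that switches ERK off, had 10.9, 11.1 and 3.92 CPM in DKO and 0.483, 0.553 and 1.27 CPM in SKO (log2 fold change 3.47, SE 0.56, adjusted p = 0.00160, edgeR). Dusp4, another ERK phosphatase, had 37.8, 30.8 and 30.3 CPM in DKO and 0.845, 2.40 and 0.575 CPM in SKO (4.70, SE 0.48, and 5.51 without SKO replicate 2). For both, every DKO library exceeded every SKO library. Etv5, an ETS transcription factor of the pathway, had 41.8, 34.3 and 24.4 CPM in DKO and 5.80, 7.05 and 4.36 CPM in SKO (2.55, SE 0.30, adjusted p = 0.000215, edgeR). Fos, an immediate early gene, averaged 3.19 ± 1.56 CPM in DKO and 0.122 ± 0.121 CPM in SKO (4.62, SE 0.83, and 5.50 without SKO replicate 1). Egr1, another, averaged 125 ± 8.61 CPM in DKO and 67.2 ± 18.4 CPM in SKO (0.90, SE 0.22), and its call was lost without SKO replicate 1 (adjusted p = 0.0593, edgeR). Il17rd, a membrane inhibitor of the receptors and the most abundant brake per length, had 283 ± 45.7 CPM in DKO and 282 ± 44.4 CPM in SKO. These are transcript levels, and whether ERK was active was not measured.

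Of the 5 tested co-receptors and FGF binders, 4 rose and 1 fell. Flrt3, a membrane protein that binds FGF receptors, had 63.0, 51.0 and 46.0 CPM in DKO and 6.40, 5.94 and 4.23 CPM in SKO (log2 fold change 3.27, SE 0.26, adjusted p = 1.68e-05, edgeR). Its relative Flrt1 averaged 49.9 ± 34.9 CPM in DKO and 11.9 ± 4.23 CPM in SKO (2.07, SE 0.46), and without DKO replicate 3, which held 89.8 CPM, the value was 1.33. Kl, the Klotho co-receptor of FGF23, averaged 13.1 ± 2.06 CPM in DKO and 3.30 ± 1.10 CPM in SKO (1.99, SE 0.34). Fgfbp1, which releases FGFs from the matrix, had 8 counts over DKO and 127 over SKO (-3.74, SE 0.74, adjusted p = 0.00471, edgeR). It passed the filter only because of its SKO reads. The fourth risen gene is Klb, the Klotho co-receptor of FGF21, named after its values were seen, at 3.06 ± 1.46 CPM in DKO and 0.642 ± 0.345 CPM in SKO (2.24, SE 0.63, adjusted p = 0.0267, edgeR). Its call was lost in 5 of the 6 fits that leave out a library, at adjusted p-values of 0.0510 to 0.0967 (edgeR), and remained without DKO replicate 3.

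Of 17 tested heparan sulfate genes, 6 rose and 0 fell, and the risen genes of smallest p were core proteins. Sdc4, a syndecan that carries heparan sulfate on the cell surface, had 33.2, 31.6 and 11.5 CPM in DKO and 1.69, 1.01 and 1.03 CPM in SKO (log2 fold change 4.34, SE 0.46, adjusted p = 0.000126, edgeR). The glypican Gpc4 averaged 11.2 ± 1.64 CPM in DKO and 1.23 ± 0.232 CPM in SKO (3.18, SE 0.35). Sdc3 averaged 5.86 ± 1.29 CPM in DKO and 0.684 ± 0.445 CPM in SKO (3.10, SE 0.52, and 3.75 without SKO replicate 2). Sdc2 averaged 26.7 ± 8.86 CPM in DKO and 10.5 ± 3.13 CPM in SKO (1.35, SE 0.33), and its call was lost without DKO replicate 1 (adjusted p = 0.0502, edgeR) and without SKO replicate 3 (adjusted p = 0.0597, edgeR). The other risen genes, named after their values were seen, were the glypican Gpc5 (1.31, SE 0.37) and Ndst1 (0.75, SE 0.22), a sulfotransferase that starts heparan sulfate modification. Each lost its call in 4 of the 6 fits that leave out a library, at adjusted p-values of 0.0508 to 0.109 for Gpc5 and 0.0618 to 0.143 for Ndst1 (edgeR). Gpc5 kept it without DKO replicate 3 or SKO replicate 1, and Ndst1 without DKO replicate 1 or 3. Hs2st1, a sulfotransferase and the most abundant of the class per length, had 288 ± 20.9 CPM in DKO and 320 ± 27.2 CPM in SKO and was not called.

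Of 18 tested relay genes from the receptor to ERK, 1 rose and 2 fell. Gab1, a docking protein of the receptors, averaged 19.6 ± 3.56 CPM in DKO and 7.33 ± 1.76 CPM in SKO (log2 fold change 1.42, SE 0.28, adjusted p = 0.00493, edgeR). Mapk3, which encodes the ERK1 kinase and was the most abundant relay gene per length in SKO, averaged 100.4 ± 14.4 CPM in DKO and 176 ± 29.2 CPM in SKO (-0.81, SE 0.19, adjusted p = 0.0108, edgeR). Its call was lost without SKO replicate 3 (adjusted p = 0.0625, edgeR).

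**Figure D4:**
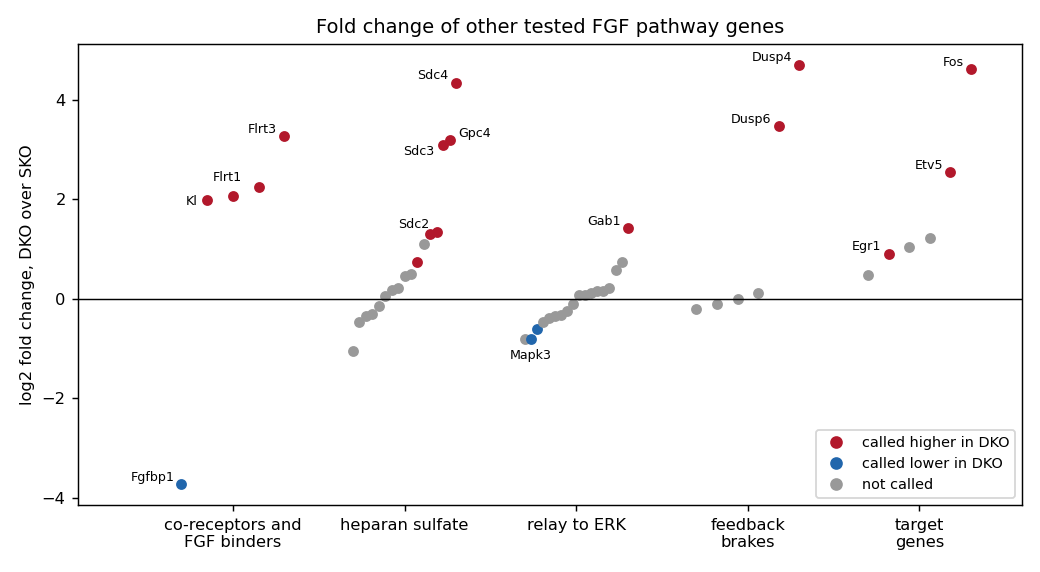
Log2 fold change (y axis, DKO over SKO, edgeR) of the 52 tested genes of the wider FGF pathway, ordered within 5 classes; red and blue points were called higher and lower in DKO, grey were not called, and most called genes with values in the text are labelled. Relay genes lie near 0, while Dusp4 at 4.70, Fos at 4.62 and Sdc4 at 4.34 are the highest.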

How the data were processed

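The data are whole-number read counts for each Entrez gene in 6 libraries, deposited by the authors without normalization, beside a gene length in bases, another quantity that served here only for CPM per kilobase. The submitters' processing notes name STAR 2.5.0a and builds GRCm38 and mm10. How reads were counted, with which annotation, and how strand and shared reads were handled is not stated. The RNA was amplified, per the labels' protocols, and a molecule can give many reads. Poisson intervals and floors therefore cover counting error only, while the edgeR intervals also draw on the spread between libraries. Of 24421 identifiers, 24387 matched the RefSeq table of GRCm38.p6. Tests used R 4.3.3 and edgeR 4.0.16: filterByExpr (minimum count 10, minimum total 15), TMM scaling and the two-sided quasi-likelihood test over all 14845 genes kept, with Benjamini-Hochberg adjustment and a threshold of 0.05. Standard errors and 95% intervals derive from the F statistic, and few counts in a group make them too narrow. DESeq2 1.42.0 served as an alternative. The code was tested on simulated data. The members, the pathway list and the marker lists were chosen with earlier results of these data known. Named were all members and, per class of the pathway list, up to 4 called genes of smallest adjusted p and the most abundant gene per length. Results that need withheld gene names are not reported here.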

Additional observations from a re-analysis of the deposited data

How the results depend on the processing

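Of the 9 called members, 8 kept direction and call in each of the alternatives that tested them: other scaling (median-of-ratios size factors, library totals), no or a stricter filter, the DESeq2 Wald test, the replicate block and each library left out. Fgf5 lost its call without a SKO library. Under the stricter filter Fgf5 and Spry2 were not tested. Of the 10 members not called, Fgf11 and Fgfr2 passed in some alternatives. Members called higher numbered 5 to 8 over the alternatives, 5 or 6 with a library left out, and those called lower 3 throughout. With library totals the median log2 fold change of all genes moved to 0.20 from 0.04, the genes called lower numbered 596 against 1100, and rises made up 83% of calls against 70%. Leaving out single libraries gave 434 to 1501 genes lower over the whole table (516, 464 and 434 without SKO replicates 1, 2 and 3) and 1 to 4 in the pathway list, where the DESeq2 Wald test gave 5 against 3. The causes were not tested. Replicate numbers are shared by the genotypes, but the labels do not pair the mice. The same-numbered deviations correlated at 0.139, 0.0773 and 0.0479, and each library correlated best with its own number. These values are low, and with 3 libraries per genotype such a match cannot show a pairing. With the replicate block, 7 members were higher and 3 lower, and 2651 genes were higher and 1364 lower. Depth limits the 15 untested members, whose groups hold few or 0 counts.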
